A study of Mus musculus with 2 samples.

Results

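Motor neurons are recognised by the genes that make them cholinergic and by the intermediate filaments of their long axons. Accessible chromatin at 7 such genes was examined in sorted Olig2-expressing cells. The cholinergic genes were Chat, Slc18a3, Slc5a7 and Ache, and the filament genes were Prph, Nefl and Nefm. Each consensus interval was assigned to the protein-coding gene with the nearest transcription start site (TSS), and 41 of 119502 intervals belonged to one of the 7 genes, out of 21853 protein-coding genes in the annotation. Of these, 12 intervals belonged to Slc5a7, 9 to Nefm, 6 to Chat, 6 to Nefl, 4 to Prph, 3 to Ache and 1 to Slc18a3.

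ATAC-seq, in which the transposase Tn5 cuts and tags open chromatin, was carried out on live cells. A mouse embryonic stem (ES) cell line with the red fluorescent protein mKate2 joined to Olig2 (Olig2-mKate2) was differentiated to day 5 in 100 nM retinoic acid (RA) and 100 nM SAG, which activates Sonic hedgehog signalling. Cells positive for mKate2 were sorted and 50000 were transposed per library. There was 1 group, LIVE_ATAC, labelled as neural progenitors (NPs), with 2 replicates, which the labels do not tie to separate cultures, so there was no comparison of conditions. The interval counts summed to 31876165 in replicate 1 and 31672240 in replicate 2. The reporter marks cells that make or recently made OLIG2. A gate on it can include newly formed motor neurons and, the study states, some cells positive for both OLIG2 and NKX2.2.

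Cholinergic neurons make acetylcholine from choline, load it into vesicles and release it, and motor neurons use it to drive muscle. Neurofilaments and peripherin are the intermediate filaments that fill and widen axons, and both groups are classed as terminal genes because they serve the differentiated neuron. Slc18a3 lies inside the first intron of Chat, an arrangement known as the cholinergic locus. Many neuronal genes carry an RE1 element, the binding sequence of the repressor REST, which holds neuronal genes silent outside neurons.

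The stretches just upstream of TSSs are shown for 2 cholinergic genes. They have 191 and 95 bases, so their motifs alone do not show that the promoters differ. Slc18a3, for the vesicular acetylcholine transporter, carried GC boxes. Slc5a7, for the choline transporter, had an E-box next to its TSS. A GC box and a TATA box (TATAAA) were also found in the middle 300 bases of the Slc5a7 promoter interval, outside the stretch shown. Coordinates and bases are of mm10 (GRCm38), each sequence is given 5′ to 3′ on the strand of the gene, here the minus strand for both, and it ends 1 base before the TSS. Capitals mark GC boxes (GGGCGG, or CCGCCC on the opposite strand) and the E-box (CATCTG).
Slc18a3, chr14:32464851-32465041: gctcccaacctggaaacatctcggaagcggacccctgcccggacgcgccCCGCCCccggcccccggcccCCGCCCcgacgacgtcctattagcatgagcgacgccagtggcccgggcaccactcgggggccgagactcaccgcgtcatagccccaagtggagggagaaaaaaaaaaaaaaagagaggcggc
Slc5a7, chr17:54299035-54299129: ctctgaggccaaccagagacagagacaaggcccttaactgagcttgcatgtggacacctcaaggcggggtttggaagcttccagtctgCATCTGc

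In the Slc18a3 stretch, which lies in the first intron of Chat, the GC boxes started at positions -142 and -122 from the TSS. The E-box of Slc5a7 started at -7.

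The promoter interval of Nefm, for the medium neurofilament subunit, held an exact match to both parts of RE1, and this site is shown because it was the only exact match among the 41 intervals. It lies between 880 and 894 bases upstream of the TSS and 82 bases inside the edge of the interval. The capitals mark the left part, CAGCACC, and the right part, GGACAG, which are 2 bases apart, on the plus strand of mm10, and 3 further bases are given at each end.
Nefm RE1, chr14:68125726-68125740 without the flanks: cggCAGCACCaaGGACAGcgc

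Exact RE1 matches on either strand were found in 59 of 14870 promoter intervals (0.397%) and 184 of 104632 distal intervals (0.176%) of the whole table. With up to 2 mismatches over the 13 letters, 3 distal intervals also matched, 1 each of Ache, Nefl and Nefm. These were 3 of 35 distal intervals of the cholinergic and filament genes (8.57%), beside 4.17% of all distal intervals. Whole intervals were searched, so a longer one has more room for a match. The 3 had 812, 985 and 1118 bases, against a median of 463 over all distal intervals. A match was read from the letters alone and binding of REST was not measured.

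The middle of 1 distal interval is shown because it had the highest normalised count per kb of the 41. It lies in an intron of Chat, which encodes choline acetyltransferase, the enzyme that makes acetylcholine. The 300 bases are given on the plus strand of mm10 and held none of the 5 short motifs searched on both strands, the E-boxes CATCTG and CAGCTG, the TATA box TATAAA, the GC box and the homeodomain motif TAATTA.
Chat intronic element, chr14:32429086-32429385: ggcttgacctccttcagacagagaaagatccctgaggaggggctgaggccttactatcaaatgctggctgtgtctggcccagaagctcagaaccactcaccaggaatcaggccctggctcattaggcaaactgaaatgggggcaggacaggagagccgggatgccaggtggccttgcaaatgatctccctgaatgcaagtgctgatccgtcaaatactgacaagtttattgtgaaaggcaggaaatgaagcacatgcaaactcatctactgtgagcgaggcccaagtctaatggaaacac

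Promoter accessibility was examined first. A promoter interval is one that overlaps a protein-coding TSS, and accessibility is given as a density, the count divided by the DESeq2 size factor of the library and by the interval length in kb. Promoter intervals were found at 6 of the 7 genes, beside 67% of all protein-coding genes. The median density over the 7 genes, with Chat at 0, was 357 normalised counts per kb, below the median of 491 over all protein-coding genes. Over genes with a promoter interval the medians were 374 and 853. Nefl was the only one of the 7 genes above either of the medians over all genes. The promoter intervals of the 7 genes were longer, with a median of 1962 bases against 1212 over all promoter intervals. A longer interval has a lower density at the same count, and how much this adds to the difference was not tested.

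Nefl encodes the light subunit on which neurofilaments assemble, and its promoter was the most accessible of the 6 by density and by count. The interval at chr14:68083654-68085326 had 1591 counts in replicate 1 and 1475 in replicate 2. Its density was 951 and 881 normalised counts per kb, or 916 ± 49.6 (SD, n = 2), higher than at 69.5% of protein-coding genes. The interval covered the first coding exon and UTR of Nefl together with coding exon and UTR of a long annotated transcript of Nefm on the opposite strand. Reads of ATAC-seq carry no strand, so the interval was counted once, for Nefl.

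Nefm encodes a subunit that lengthens and spaces the neurofilament. Its interval at chr14:68123573-68125822 had 788 and 820 counts. The density was 350 and 364 normalised counts per kb, or 357 ± 9.85 (SD, n = 2), higher than at 44.5% of genes. Among genes with a promoter interval this share was 17.1%. The promoter intervals of Nefl and Nefm faced each other across 38.2 kb that held no interval of any gene.

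Prph encodes peripherin, the filament protein of neurons with axons outside the central nervous system. The interval at chr15:99055259-99056577 had 588 and 579 counts, a density of 446 and 439, and a mean of 442 ± 5.08 normalised counts per kb (SD, n = 2). It overlapped 1 of the 4 annotated TSSs of the gene, the one farthest downstream, and began between 78 and 85 bases after the other 3. The interval thus lay within the gene, over coding exon and UTR, rather than upstream of it.

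Ache encodes acetylcholinesterase, which breaks acetylcholine down at the synapse. The interval at chr5:137286640-137289412, the longest of the 6 at 2773 bases, covered all 7 annotated TSSs of the gene. It had 1115 and 1054 counts, a density of 402 and 380, and a mean of 391 ± 15.8 normalised counts per kb (SD, n = 2). It also overlapped a non-coding transcript, Gm42456, so accessibility that belongs to that transcript is included.

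Slc18a3 and Chat share the cholinergic locus. The Slc18a3 interval at chr14:32463176-32465704 covered its TSS, its coding exon and an exon of the non-coding transcript Gm2990, and had 780 and 737 counts. The density was 309 and 291, or 299.9 ± 12.2 normalised counts per kb (SD, n = 2). None of the 4 annotated TSSs of Chat was covered by an interval. The nearest interval to each of them was the one of Slc18a3, whose edge lay 253 and 285 bases from the upstream pair of Chat TSSs and 1134 and 2236 bases from the downstream pair. The absence of an interval says that no peak was called over these TSSs, not that counts there were 0.

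Slc5a7 encodes the transporter that takes choline back into the nerve terminal, and its promoter was the least accessible of the 6 by density and by count. The interval at chr17:54298126-54299129, which covered UTR and both annotated TSSs, had 179 and 224 counts. The density was 178 and 223, or 201 ± 31.6 normalised counts per kb (SD, n = 2), higher than at 39.0% of genes. Among genes with a promoter interval this share was 8.89%.

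The order of promoter density was Nefl, Prph, Ache, Nefm, Slc18a3 and Slc5a7. Between neighbours in this order the replicate values did not overlap, although with 2 replicates the spread is poorly known. The order depended on the division by length: by mean normalised count per interval it was Nefl (1533), Ache (1085), Nefm (804), Slc18a3 (759), Prph (584) and Slc5a7 (201), so that Prph came after Ache, Nefm and Slc18a3. Nefl was 2.07-fold above Prph, and Slc18a3 was 1.49-fold above Slc5a7. The 4 genes from Prph to Slc18a3 lay within steps of 1.09-fold to 1.19-fold. In bulk cells, a site open in fewer cells and a site less open in each cell cannot be told apart.

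**Figure D1:**
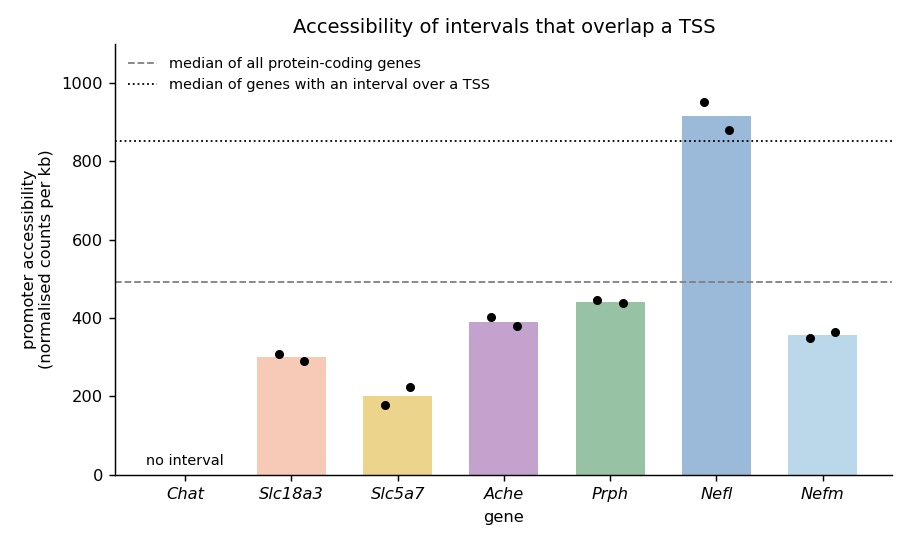
Promoter accessibility of the 7 genes in normalised counts per kb; bars are means of 2 replicates, points are replicates, the dashed line is the median of all protein-coding genes (491) and the dotted line that of genes with an interval over a TSS (853). Nefl, at 916, is the only gene above either line, and Chat has no interval over a TSS.

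Among all promoter intervals, the 6 had percentile ranks from 12.4 (Slc5a7) to 58.0 (Nefl), with a median of 22.8. The 35 distal intervals had percentile ranks from 4.79 to 98.98 among distal intervals, with a median of 58.2. The median promoter interval of the 7 genes was 2.60 ± 0.0216 times as dense as their median distal interval (SD, n = 2), and over the whole table this ratio was 6.48 ± 0.247. The medians behind these ratios were 374 against 144 normalised counts per kb for the 7 genes, and 799 against 123 for all intervals. The lower ratio thus came with a lower promoter median and a distal median that was slightly higher. It also came with longer promoter intervals (median 1962 bases, against 1212 for all), and the part of length in the ratio was not tested.

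**Figure D2:**
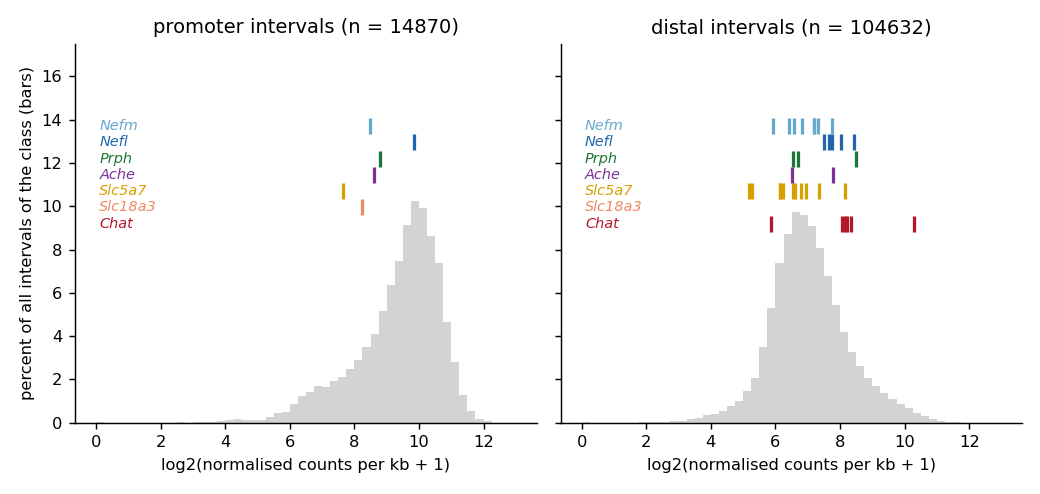
Density of promoter intervals (left) and distal intervals (right) on a log2 scale with a pseudocount of 1; grey bars are the percent of all intervals of the class and coloured ticks the intervals of each gene, at heights that carry no value. The promoter ticks, except that of Nefl, lie on the left side of the distribution, and 1 Chat tick lies at the far right of the distal one.

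The distal intervals were then described gene by gene. Of the 35, 25 were intergenic, 8 intronic and 2 in exons of non-coding transcripts. Their edges lay between 1.395 and 462 kb from the nearest TSS of their gene, with a median of 47.8 kb, and 11 lay beyond 100 kb. Assignment to the nearest TSS does not show which gene an element acts on.

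Chat had the most accessible distal interval of the 7 genes and the highest median distal density, at 289 normalised counts per kb. Its second strongest, however, was below the strongest of Prph (364) and Nefl (347). All 6 distal intervals of Chat were intronic, 4 in Chat itself and 2 in introns of the non-coding transcript Gm2990, upstream of the Chat TSSs. The strongest Chat interval, at chr14:32428744-32429727, had 1207 and 1252 counts, a density of 1227 and 1272, and a mean of 1249 ± 31.6 normalised counts per kb (SD, n = 2). Per kb this was above every promoter interval of the 7 genes, although the longer Nefl promoter interval had a higher mean normalised count (1533 against 1229), and at a percentile rank of 98.98 among distal intervals. It lay 31.2 kb downstream of the nearest Chat TSS, and its middle is the sequence printed above.

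The next strongest Chat interval, at chr14:32439614-32440467, had 279 and 275 counts and 324 ± 3.5 normalised counts per kb (SD, n = 2), so the strongest element was well apart from the others. The remaining Chat intervals ranged from 57.2 to 296 normalised counts per kb. Chat therefore had no interval over a TSS but held 4 intervals with a mean over 100 normalised counts. When each gene was given a single TSS at its 5′ end, the 4 intervals inside Chat, the strongest included, were assigned to Slc18a3, which is nested in the same locus.

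Slc5a7 had the most distal intervals, 11, spread over the widest territory. The stretch of chromosome 17 nearer to its TSSs than to those of other genes was 728 kb, and held 1.65 intervals per 100 kb, the lowest of the 7 genes. The strongest distal interval, at chr17:54707796-54708210, lay 409 kb upstream and had 123 and 113 counts, or 284 ± 17.2 normalised counts per kb (SD, n = 2). Per kb it was more accessible than the Slc5a7 promoter, although the longer promoter interval had a higher mean normalised count (201 against 118). Second was the interval at chr17:54310977-54311391, which lay 11.9 kb upstream with 60 and 74 counts, or 161 ± 23.8 (SD, n = 2), and the other 9 ranged from 35.4 to 122 normalised counts per kb.

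Ache had 2 distal intervals, both upstream. The one at chr5:137277444-137278255, in an intron of Gm42456 and 9.26 kb from the TSS, had 173 and 181 counts, or 218 ± 6.84 normalised counts per kb (SD, n = 2). The other, at chr5:137268755-137269087, had 30 counts in each replicate, or 90.1 normalised counts per kb. Slc18a3 had no distal interval, in a territory of 1.96 kb between the TSSs of Chat.

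Prph had 3 distal intervals, all intergenic and upstream. The nearest, at chr15:99053494-99053779, lay 1.395 kb from the first TSS and had 107 and 101 counts. Its density of 364 ± 15.0 normalised counts per kb (SD, n = 2) was close to that of the promoter interval. The others had 102 and 92.0 normalised counts per kb, the first at chr15:99049301-99050027 with 83 and 66 counts.

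The 5 distal intervals of Nefl all lay upstream, between 15.8 and 62.6 kb from its TSS, and ranged from 179 to 347 normalised counts per kb. The strongest, at chr14:68050849-68051833 in an exon of the non-coding gene Gm31107, had 344 and 339 counts, or 347 ± 3.79 (SD, n = 2). Second was the interval at chr14:68048199-68048551 in an intron of that gene, with 90 and 95 counts, or 262 ± 9.86 (SD, n = 2).

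Nefm had 8 distal intervals, all intergenic and upstream, between 26.3 and 195 kb from its TSS, and each was weaker than its promoter interval. The strongest, at chr14:68209413-68209861, had 109 and 84 counts, or 215 ± 39.5 normalised counts per kb (SD, n = 2). Second was the interval at chr14:68196837-68199391, which had 401 and 404 counts, or 158 ± 0.739 (SD, n = 2), and was 2555 bases long. The other 6 ranged from 60.1 to 145 normalised counts per kb.

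**Figure D3:**
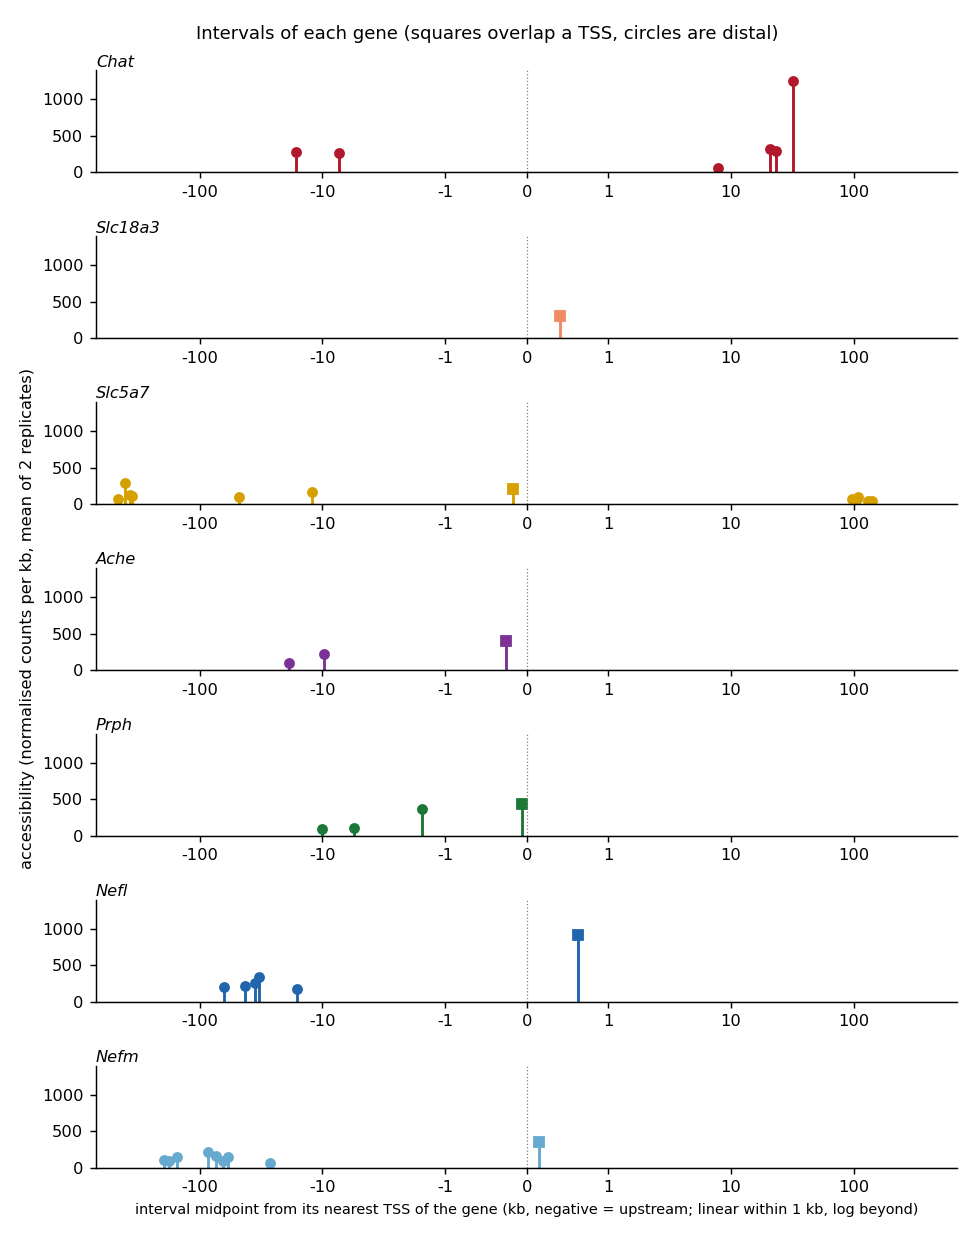
Density of each interval (normalised counts per kb, mean of 2 replicates) against the distance of its midpoint from the nearest TSS of its gene in kb, linear within 1 kb and logarithmic beyond; squares overlap a TSS and circles are distal. The tallest point, at 1249, is distal and belongs to Chat, whose own TSSs carry no square, and Slc5a7 has intervals on both sides, out to 462 kb upstream.

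Of the 41 intervals, 20 had a mean over 100 normalised counts, or 48.8%, beside 38.8% of all intervals. They were the 6 promoter intervals and 14 of the 35 distal ones. By gene, 5 belonged to Nefm, 4 each to Chat and Nefl, 2 each to Slc5a7, Ache and Prph, and 1 to Slc18a3.

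The replicates were compared next. The 41 intervals held 9704 counts in replicate 1 and 9560 in replicate 2. An exact binomial test of each interval (two-sided, Benjamini-Hochberg over all intervals, limit 0.01) called 0 of the 41 different between the libraries, beside 0% of all intervals, and it compares the libraries and not conditions. Unadjusted, 3 of the 41 had a p under 0.05 (7.32%), beside 7.84% of all intervals. They were the Slc5a7 promoter (exact p = 0.0289, adjusted 0.574), the Nefl promoter (exact p = 0.0358, adjusted 0.595) and the interval at chr17:54668807-54669500 nearest to Slc5a7, with 70 and 100 counts (exact p = 0.0262, adjusted 0.561).

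With edgeR TMM factors 6 intervals of the table were called and 0 of them belonged to the 7 genes. Replicate 2 was higher in 21 of the 41 and lower in 20. Among the 20 with a mean over 100 the SD of the log2 ratio of the replicates was 0.13, beside 0.14 over all such intervals, and the largest was 0.32, at the Slc5a7 promoter. The weakest interval, 1 of Slc5a7, had 7 and 8 counts, so densities of such intervals rest on few fragments.

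**Figure D4:**
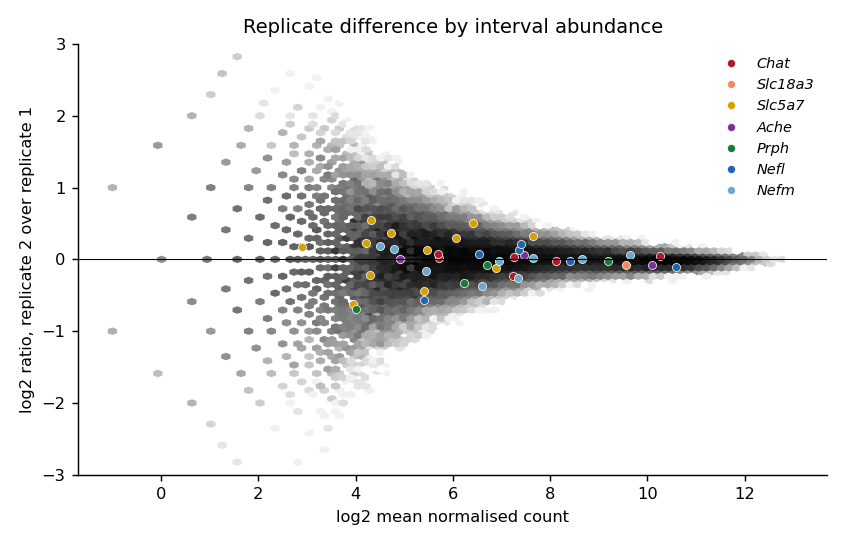
The log2 ratio of replicate 2 over replicate 1 against log2 mean normalised count, with all intervals in grey and the intervals of the 7 genes coloured. The spread narrows as counts rise, and the coloured points lie among the grey ones, with 21 above 0 and 20 below.

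Genes related to the 7 were described as lists. Other genes of acetylcholine handling had promoter intervals at 4 of 5, with a median density of 493 normalised counts per kb. Prima1, which anchors acetylcholinesterase in the membrane, had 942 ± 35.1 (SD, n = 2), Slc44a1, a choline transporter of many cells, 914 ± 5.34, and Bche, a related esterase, 493 ± 17.2. Slc10a4, a vesicle protein of cholinergic neurons, had 242 ± 14.4, and Colq, the collagen tail of the esterase at the neuromuscular junction, had no promoter interval.

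Other intermediate filament genes also had promoter intervals at 4 of 5, with a median of 820 normalised counts per kb. Vim had 1262 ± 3.98 and Nes had 820 ± 4.31 (SD, n = 2), and both encode filaments of neural progenitors. Nefh, the heavy neurofilament subunit, had 958 ± 5.83, and Ina, an internexin of neurons, had 675 ± 51.9. Gfap, the filament of astrocytes, had no promoter interval. Within the neurofilament triplet, Nefh and Nefl were thus above the median of genes with a promoter interval and Nefm was below it.

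Transmitter genes of other neurons had promoter intervals at 12 of 15, with a median of 222 normalised counts per kb. The highest was Slc17a7, a vesicular glutamate transporter, at 586 ± 26.0 (SD, n = 2). The median of the 7 cholinergic and filament genes lay between this list and the list of motor neuron transcription factors, at 718 with intervals at 5 of 5, from 376 for Lhx3 to 2268 for Isl2. That median pools 2 kinds of gene. Of the cholinergic genes, Chat had no promoter interval and so no measured value. The others ranged from 201 (Slc5a7) to 391 (Ache), on both sides of the 222 of other transmitter genes. Genes with no promoter interval counted as 0 in the list medians. The filament genes ranged from 357 (Nefm) to 916 (Nefl), all above it. No test was made between lists.

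Marker lists were read for the label of the sample. Markers of pMN and other progenitors had promoter intervals at 5 of 5 and a median of 946 normalised counts per kb. Olig2 was the gene at this median, at 946 ± 23.2 (SD, n = 2). The cells were sorted on a reporter of Olig2, so its value is no separate check of the label. Of genes used in neurons of any kind, 4 of 4 had promoter intervals, with a median of 493. For p3 and floor plate markers the count was 3 of 4, with a median of 515 and no interval at Shh, for feeder fibroblasts 4 of 5 with 248, and for pluripotent cells 2 of 4 with 119. Of the pluripotent markers Pou5f1 and Nanog had no promoter interval, and Esrrb and Zfp42 had 282 ± 2.04 and 237 ± 4.87 normalised counts per kb (SD, n = 2). The highest of the fibroblast list was Pdgfra, at 860 ± 39.6 (SD, n = 2). An open promoter does not show that a gene is expressed, and the share of each cell type in the sort was not measured.

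**Figure D5:**
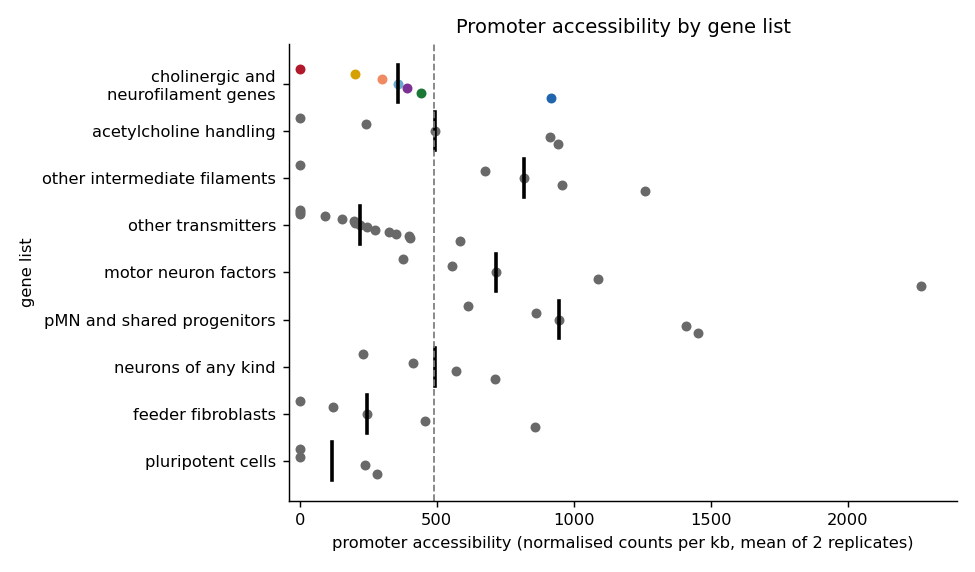
Promoter density (normalised counts per kb, mean of 2 replicates) of each gene, a point, by list, with list medians as black bars, the median of all protein-coding genes (491) as the dashed line, and genes with no promoter interval at 0. The 7 cholinergic and filament genes have a median of 357, above other transmitter genes at 222 and below motor neuron factors at 718. Of the cholinergic genes, Chat has no promoter interval and the others range from 201 to 391. The filament genes range from 357 to 916.

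Sequence features that the assignment did not use were also compared. The median GC content of the 6 promoter intervals was 62.1%, beside 59.9% for all promoter intervals, and the observed to expected ratio of CpG was 0.730, beside 0.680. For distal intervals the medians were 47.7% beside 48.4% GC, and 0.158 beside 0.208 for CpG. The promoter intervals of the 7 genes were therefore GC-rich like promoters in general.

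The 200 bases upstream of the 5′-most TSS were searched for 6 of the genes, Chat, Slc18a3, Slc5a7, Ache, Prph and Nefl. TATAAA on either strand was found at 3 of the 6, Nefl, Prph and Slc5a7, beside 8.32% of 54361 protein-coding TSSs. That share covers every annotated TSS and not only the 5′-most of each gene. The bases searched at Chat and Prph lay outside their nearest interval. The upstream TATAAA match of Slc5a7 was not in the stretch shown, which runs to the interval edge. GGGCGG was found at Slc18a3 and Prph, beside 38.0% of TSSs, CAGCTG at Chat, beside 10.6%, and CATCTG at Slc5a7, beside 10.1%. TAATTA was found at 0 of the 6, beside 3.44%, and the upstream bases of Ache held none of the 5 motifs. Such matches are descriptions of the letters and not binding sites.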

How the data were processed

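ATAC-seq counts of 2 LIVE_ATAC replicates were used. The authors deposited raw fragment counts per consensus interval. Per the file headers, featureCounts 2.0.1 counted read pairs in every interval they overlapped by at least a fraction of 0.2. The study's methods give the nf-core atacseq pipeline, mm10 and peaks called by MACS, kept if shared by 2 replicates. The intervals were defined over 5 libraries, and 3 further per-sample columns, which match no sample here, were not used. Accessibility at weak sites is therefore seen only where a peak was called.

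Totals were 31876165 and 31672240 counts. Size factors of DESeq2 (1.42.0), 0.9996 and 1.0004, and interval length in kb scaled each count. Genes came from GENCODE M21, TSSs from protein-coding transcripts, and bases from RefSeq GRCm38.p6. An interval was a promoter interval if it overlapped a TSS and distal otherwise. A territory ran to the midpoints between TSSs of neighbouring genes. The exact binomial test (2 times the smaller tail, Benjamini-Hochberg over all intervals) was tested on simulated data. Fragments carried no molecular identifiers, so p-values cover counting error only, and the spread between the replicates may be technical. Alternatives were edgeR (4.0.16) TMM, total counts, low-count limits, TSS definitions, counts per interval and leaving out each replicate. Python 3.11.15, scipy 1.17.1, pandas 2.3.3 and pysam 0.24.0 were used.

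All 7 genes, their promoter intervals and, for each gene, its 2 densest distal intervals were named by rule, as were all genes of the acetylcholine and filament lists. Of other lists the rule allowed the highest and lowest genes, not all of which are named. Olig2, Shh, Zfp42, Pou5f1, Nanog and the interval at chr17:54668807-54669500 were named after their values were seen. Some sequence that met the rule is not reported here. The genes and lists were chosen with earlier results of these data known.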

Additional observations from a re-analysis of the deposited data

How the results depend on the processing

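The 41 intervals were found again when interval midpoints or gene 5′ ends set the distance. At a limit of 50 in place of 100 normalised counts, 27 intervals passed. The densities of the 6 promoters moved by no more than 1 SD between replicates under the 5 alternatives run for each (edgeR TMM, total counts, intervals within 1 kb of a TSS and leaving out each replicate), although for leaving out a replicate this holds by construction. Counts per interval in place of density gave a median promoter value of 759 and a promoter to distal ratio of 10.5, as the median promoter interval of these genes had 1962 bases and the median distal one 507. Leaving Chat out gave a median of 374. Leaving out each replicate gave ratios from 2.59 to 2.63. No paired analysis was possible because the labels give only 1 group. With 2 replicates, no sample could be judged an outlier. Promoters below the peak-calling limit, such as those of Chat, have no value here.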
